A study of Mus musculus with 38 samples.

Results

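The 30 megakaryocyte and platelet genes described here were chosen by name, as genes of the cell that makes platelets and of the platelets themselves, and were found by matching mouse gene symbols to Ensembl identifiers. All 30 were found among the 47729 genes of the whole marrow tables and among the 46679 genes of the osteoclast precursor tables, and all 30 had enough counts to be tested in every comparison below. RNA was sequenced from 6 to 7 week old female C57BL/6J mice. Whole bone marrow came from 4 groups: untreated (2 libraries), G-CSF alone (3 libraries), zoledronic acid (ZA) alone (2 libraries), and ZA with G-CSF, called combined (2 libraries). ZA, a bisphosphonate that binds to bone, was injected at 100 µg per kg, and recombinant human G-CSF, the cytokine that drives neutrophil production, at 50 µg per kg on each of 3 days that began 2 days after ZA. Sorted osteoclast precursors, which the labels define as lineage-negative CD115+ marrow cells, came from the same 4 groups, and their first sequencing run gave 8 libraries (untreated 1, G-CSF 3, ZA 1, combined 3) beside 3 whole marrow libraries. No allele or transgene is named for any of these groups, so all of them share 1 inbred strain by label. The labels number the replicates without saying that each was a separate animal, and every p-value below rests on the library-to-library spread, which may be technical.

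Megakaryocytes are large polyploid marrow cells that load granules with adhesive and signalling proteins, build a microtubule-based cytoskeleton and shed platelets into marrow sinusoids. Platelets adhere to injured vessel walls through the glycoprotein Ib-IX-V complex, which binds von Willebrand factor, and aggregate through the integrin αIIbβ3, which binds fibrinogen. Transcription factors of the GATA, ETS and RUNX families switch on the genes of the lineage. In bulk marrow, fewer cells of a type and less RNA per cell cannot be told apart.

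Libraries held 6.24 to 16.15 M estimated counts in whole marrow and 21.05 to 33.19 M in the run 1 precursors. A floor of 3 counts, set by choice for a listed 0, corresponds to 0.186 to 0.481 counts-per-million units (CPM) in marrow. All 10 defining markers of the lineage (Pf4, Ppbp, Itga2b, Gp1ba, Gp1bb, Gp5, Gp9, Gp6, Clec1b and Treml1) were above 0 in each of the 9 marrow libraries. The 3 run 1 marrow libraries of the precursor tables were the same libraries as untreated replicate 2, G-CSF replicate 2 and ZA replicate 2 of the marrow tables, with totals that differed by 0 to 2 counts, and were not counted as further replicates. Several libraries of the second run went against their labels. Of 18 run 2 libraries, 8 correlated best, across 13324 genes, with a run 1 library of the other tissue label, and of 9 samples sequenced in both runs 4 were closest to their own run 1 library. Run 1 libraries therefore give the values for precursors, and results with run 2 are set beside them. In whole marrow, 50 genes lay at 1 TPM (transcripts-per-million units) or more in all 5 libraries given G-CSF and at 0.1 TPM or less in the other 4, and 11 genes showed the opposite pattern. None of the 30 members was among them, 0 in either direction, and G-CSF and whatever else divides those libraries cannot be told apart.

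Promoter sequences were taken from RefSeq on GRCm38.p6 to show the genes whose levels the results turn on. A window with a start within 1000 bases of the annotated gene start was found for 22 of the 30 members, and Thbs1, Vwf, Mmrn1, Itgb3, Pear1, Plek, Rgs18 and Fli1 were not matched. The 250 bases before the start are printed 5′ to 3′ on the gene's own strand to compare genes that moved together for 4 members whose marrow levels correlated at 0.97 or more with the mean of the defining markers: the neighbouring chemokine genes Pf4 (chr5:90772185-90772434, plus strand) and Ppbp (chr5:90768268-90768517, plus strand), whose starts lie 3917 bases apart, and the adhesion receptor genes Gp9 (chr6:87777820-87778069, plus strand) and Gp5 (chr16:30310782-30311031, minus strand). Capitals mark AGATAA (the GATA family), AGGAAG (the ETS family) and TGTGGT (the RUNX family), or their reverse complements.
Pf4: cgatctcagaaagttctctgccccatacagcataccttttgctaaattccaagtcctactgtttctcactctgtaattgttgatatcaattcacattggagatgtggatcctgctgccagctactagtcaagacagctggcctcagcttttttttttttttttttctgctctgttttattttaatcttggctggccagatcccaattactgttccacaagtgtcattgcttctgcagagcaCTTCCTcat
Ppbp: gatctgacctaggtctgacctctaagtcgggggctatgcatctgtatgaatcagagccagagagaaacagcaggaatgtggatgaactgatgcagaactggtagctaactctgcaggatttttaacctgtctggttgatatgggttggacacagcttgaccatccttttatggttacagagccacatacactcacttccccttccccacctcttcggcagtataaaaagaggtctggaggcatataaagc
Gp9: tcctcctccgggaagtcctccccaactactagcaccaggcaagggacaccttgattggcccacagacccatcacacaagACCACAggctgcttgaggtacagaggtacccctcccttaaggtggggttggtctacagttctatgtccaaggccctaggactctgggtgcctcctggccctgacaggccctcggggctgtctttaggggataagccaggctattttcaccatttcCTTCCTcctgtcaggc
Gp5: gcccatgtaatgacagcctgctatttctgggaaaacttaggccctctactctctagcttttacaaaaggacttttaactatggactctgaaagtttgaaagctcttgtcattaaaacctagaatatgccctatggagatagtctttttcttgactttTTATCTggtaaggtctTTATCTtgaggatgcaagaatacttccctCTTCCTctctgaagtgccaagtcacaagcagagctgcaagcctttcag
The Gp5 stretch holds 2 GATA matches and 1 ETS match, the Gp9 stretch 1 ETS and 1 RUNX match, the Pf4 stretch 1 ETS match, and the Ppbp stretch 0 matches of any kind. In the whole 300 bases, which add 50 after the start, 13 of the 22 member windows held AGGAAG (59.1%) against 35.4% of 32851 windows of all genes. AGATAA was in 5 of 22 (22.7%) against 11.2%, and TGTGGT in 2 of 22 (9.09%) against 16.8%. Each member was counted by 1 window, the nearest to its annotated start. The shares of all genes count every window without that choice, so the sets compared are unlike. No overlap was found between the marked motifs in the 4 printed stretches. These matches describe letters in a window and were not tested as binding sites.

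Levels between genes are compared in TPM, which accounts for gene length. Averaged over the 9 marrow libraries, Pf4 was the highest of the 30 members at 447 TPM, followed by Ppbp at 204 TPM, Itga2b at 112 TPM and Gfi1b at 109 TPM. Gp1bb (44.3 TPM), Vwf (37.4 TPM), Nrgn (33.6 TPM), Clec1b (29.8 TPM) and Gp9 (29.0 TPM) came next, and the calcium channel Trpc6 was the lowest at 0.946 TPM. The order differed between the groups: over the 5 libraries with G-CSF the means of Pf4, Ppbp, Itga2b and Gfi1b were 705, 335.6, 165.7 and 121.9 TPM, and over the 4 without it they were 124.9, 39.0, 45.3 and 93.2 TPM, so that Gfi1b was second there. In untreated replicate 2 and ZA replicate 2 Gfi1b was above Pf4. Within genes, levels are CPM after edgeR's TMM scaling. Gp1bb ran from 4.08 CPM in untreated replicate 2 to 219 CPM in G-CSF replicate 3, a 53.8-fold range, and the collagen receptor Gp6 from 1.10 to 33.9 CPM, a 30.7-fold range. By contrast Fli1 varied 1.53-fold, Rgs18 1.80-fold and Ltbp1 1.88-fold over the same libraries. A range of over 10-fold was seen in 13 members and in 13.3% of all 14737 genes tested. Across the 9 libraries, which share scaling and depth with each other, 19 of the 30 members had a Pearson correlation above 0.9 with the mean of the defining markers. Each defining marker was left out of the mean it was set against. The 19 include every defining marker but Gp6 (0.89), and the share of all genes above 0.9 was not computed. Nbeal2 (−0.63), Gfi1b (−0.38) and Fli1 (−0.34) had negative correlations with the mean of the defining markers, and Rgs18 (0.26) and Ltbp1 (0.44) weak ones.

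**Figure D1:**
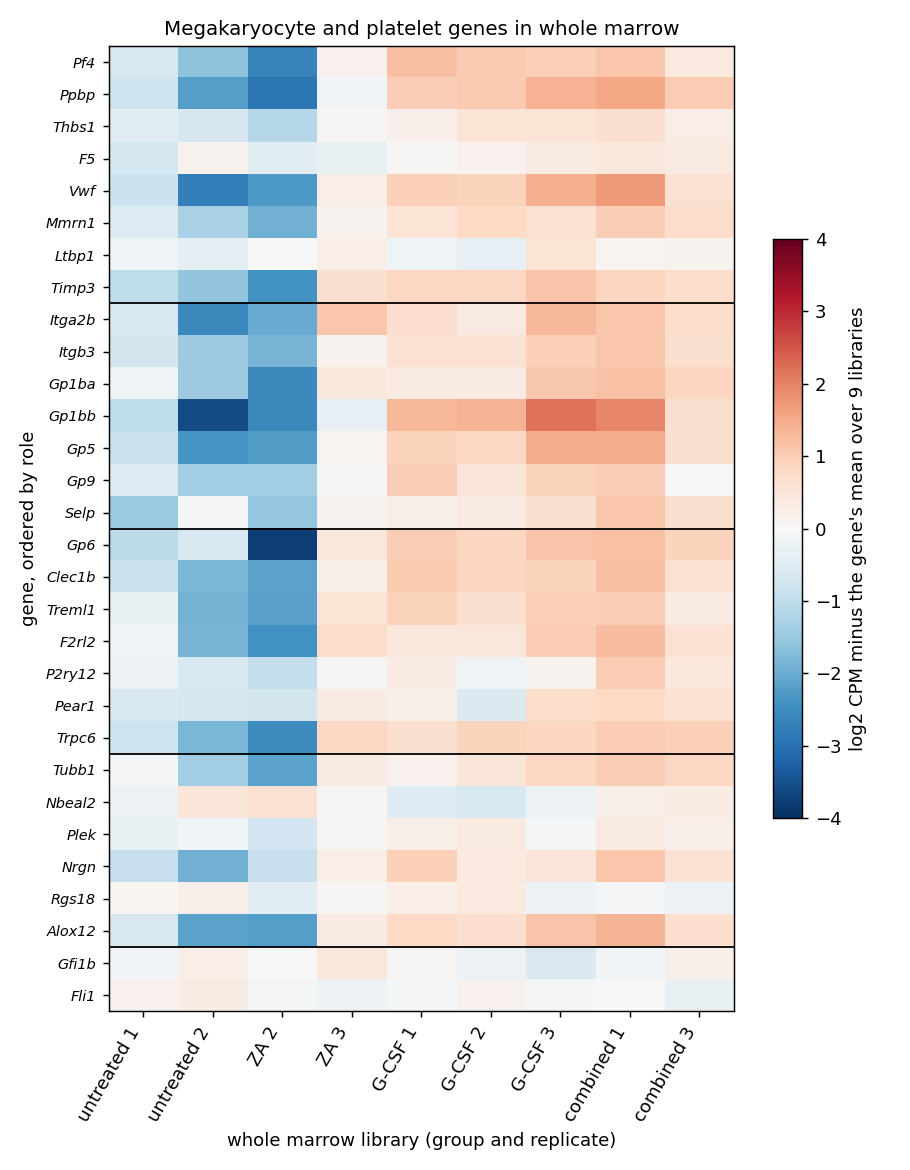
Levels of the 30 genes in the 9 whole marrow libraries, as log2 CPM minus the gene's mean over the libraries, with genes on the vertical axis grouped by role (black lines) and libraries on the horizontal axis. Most genes are lowest in ZA replicate 2 and untreated replicate 2 and highest in the G-CSF and combined libraries, while ZA replicate 3 sits above ZA replicate 2 for most genes, and Fli1, Rgs18, Ltbp1, Gfi1b and Plek vary least.

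The 5 marrow libraries given G-CSF, alone or with ZA, were set against the 4 without it to ask how the lineage's genes differ under the cytokine. Of the 30 members 10 rose and 0 fell, where 14.7% of all genes were called (6.39% higher and 8.27% lower), and 27 of the 30 fitted changes were positive against 49.8% of all genes. The median log2 change of the members was 1.38, and that of all genes was −0.002. The 10 genes were Ppbp, Thbs1, F5, Mmrn1, Itgb3, Gp1bb, Gp5, Gp9, Clec1b and Nrgn. All 5 G-CSF libraries lay above all 4 others for 15 of 30 members (7.34% of all genes) and below them for 0 (7.95%). They lay above both untreated libraries for 24 (17.5% of all genes).

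Among 8 secreted granule proteins 4 rose. Ppbp (ENSMUSG00000029372, chromosome 5, 90768518 to 90770063, on GRCm38 as all gene positions here), the precursor of a platelet chemokine that attracts neutrophils, was at 129 and 49.6 CPM in untreated marrow, 30.6 and 209.7 with ZA, 452, 472 and 590.5 with G-CSF, and 666 and 464 with both. The lowest of the 5 libraries given G-CSF was thus above the highest of the others, ZA replicate 3. Its log2 change was 2.37 ± 0.58 (adjusted p = 0.0348). Pf4 (ENSMUSG00000029373, chromosome 5, 90772435 to 90773383), the neighbouring chemokine gene that encodes platelet factor 4, was at 65.5 and 33.1 CPM in untreated marrow, 16 and 114 with ZA, 234, 210.3 and 197 with G-CSF, and 216.5 and 132 with both. Its groups with and without G-CSF did not overlap, but its log2 change of 1.77 ± 0.54 (adjusted p = 0.0693) did not pass the test. Thrombospondin 1, Thbs1 (ENSMUSG00000040152, chromosome 2, 118111876 to 118127133), a matrix glycoprotein released from α-granules, was at 102 and 87.8 CPM in untreated marrow, 63.9 and 145 with ZA, 162, 206 and 207 with G-CSF, and 219.7 and 171 with both. The groups did not overlap, and the log2 change was 0.96 ± 0.23 (adjusted p = 0.0235). Multimerin 1, Mmrn1 (ENSMUSG00000054641, chromosome 6, 60924976 to 60989378), which binds factor V in platelets, was at 11.1 and 6.69 CPM in untreated marrow, 4.27 and 17.9 with ZA, 24.1, 28.2 and 25 with G-CSF, and 32.1 and 27 with both. It too was higher in every library given G-CSF, with a log2 change of 1.48 ± 0.36 (adjusted p = 0.0275). Coagulation factor V, F5 (ENSMUSG00000026579, chromosome 1, 164151838 to 164220277), was at 39.3 and 70.7 CPM in untreated marrow, 47.5 and 52.7 with ZA, 66.3, 72.2 and 81.5 with G-CSF, and 87.2 and 82.8 with both. Here the groups overlapped at untreated replicate 2, and the log2 change was small, 0.59 ± 0.17 (adjusted p = 0.0481). Von Willebrand factor, Vwf, the multimer that tethers platelets, had a larger log2 change of 2.20 ± 0.61 (adjusted p = 0.0556) with a wider spread and was not called. Timp3, a metalloproteinase inhibitor, ran from 4.96 to 57.3 CPM without overlap between the groups and was not called, and Ltbp1, a latent TGF-β binding protein, from 17.1 to 32.3 CPM with overlap, with a log2 change of 0.17 ± 0.20 (adjusted p = 0.617).

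Adhesion receptors made up 7 members, of which 4 rose: Itgb3 and 3 of the 4 subunits of the glycoprotein Ib-IX-V complex. Gp1bb (ENSMUSG00000050761, chromosome 16, 18620317 to 18622403), the β chain of glycoprotein Ib, was at 23.9 and 4.08 CPM in untreated marrow, 8.13 and 38.8 with ZA, 121, 125 and 219 with G-CSF, and 188 and 74.9 with both. It had the largest log2 change of the 30 genes, 3.00 ± 0.68 (adjusted p = 0.0292). Gp1bb overlaps Sept5 and another gene model on its own strand, so its counts are uncertain. Gp5 (ENSMUSG00000047953, chromosome 16, 30307685 to 30310779), the glycoprotein V subunit, was at 23.9 and 8.65 CPM in untreated marrow, 9.37 and 47.4 with ZA, 83.9, 79.1 and 124 with G-CSF, and 125 and 69.8 with both. Every library given G-CSF exceeded ZA replicate 3, the highest of the others, and the log2 change was 2.17 ± 0.52 (adjusted p = 0.0313). Gp9 (ENSMUSG00000030054, chromosome 6, 87778072 to 87779768), the glycoprotein IX subunit, was at 20.6 and 11.8 CPM in untreated marrow, 11.3 and 28.6 with ZA, 58.6, 41.3 and 56.3 with G-CSF, and 58.7 and 29.9 with both. Its margin was thin, with combined replicate 3 just above ZA replicate 3, and its log2 change was 1.42 ± 0.33 (adjusted p = 0.0229). Gp1ba, the α chain that carries the von Willebrand factor binding site, was at 13.8 and 5.71 CPM in untreated marrow, 2.62 and 21 with ZA, 19.4, 19.8 and 33 with G-CSF, and 35 and 28.2 with both. ZA replicate 3 lay among the G-CSF libraries, and the log2 change of 1.36 ± 0.54 (adjusted p = 0.138) was not called. Itgb3 (ENSMUSG00000020689, chromosome 11, 104608000 to 104670476), the β3 integrin, was at 91.3 and 55 CPM in untreated marrow, 41.3 and 168 with ZA, 229, 233 and 292 with G-CSF, and 327 and 235 with both. The groups did not overlap, and the log2 change was 1.60 ± 0.39 (adjusted p = 0.0297). Its partner Itga2b, the αIIb integrin that marks the lineage from its progenitors on, was at 97.6 and 25.5 CPM in untreated marrow, 37.8 and 324 with ZA, 243, 195 and 370.0 with G-CSF, and 329.6 and 245 with both. ZA replicate 3 was the third highest of all 9 libraries for Itga2b, and the log2 change of 1.40 ± 0.67 (adjusted p = 0.222) was not called. P-selectin, Selp, the granule membrane lectin that binds leukocytes, ran from 3.45 to 21.8 CPM and was not called either, although its groups did not overlap.

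Among the 7 activating and other surface receptors 1 rose. Clec1b (ENSMUSG00000030159, chromosome 6, 129397297 to 129409335), the CLEC-2 receptor for podoplanin, was at 14.5 and 7.51 CPM in untreated marrow, 6.06 and 31.5 with ZA, 54.9, 48.5 and 50.7 with G-CSF, and 61.3 and 41 with both. The groups did not overlap, and the log2 change was 1.84 ± 0.44 (adjusted p = 0.0273). Its annotated span overlaps that of Clec9a, so its counts carry that uncertainty. Gp6, the collagen receptor, was at 7.23 and 9.79 CPM in untreated marrow, 1.1 and 20.6 with ZA, 29.9, 27.4 and 33.3 with G-CSF, and 33.9 and 27.8 with both. The groups did not overlap but ZA replicate 2 and ZA replicate 3 differed 18.7-fold, and the log2 change of 1.65 ± 0.61 (adjusted p = 0.119) was not called. Treml1, an α-granule receptor shown on activated platelets, was at 24.6 and 8.16 CPM in untreated marrow, 6.75 and 44.2 with ZA, 57.1, 47.3 and 59.5 with G-CSF, and 60.5 and 38.3 with both. Its log2 change was 1.35 ± 0.54 (adjusted p = 0.145), with ZA replicate 3 inside the range of the libraries given G-CSF. The other 4 receptors were the thrombin receptor F2rl2 (2.21 to 28.0 CPM), the ADP receptor P2ry12 (1.93 to 7.48 CPM), the endothelial and platelet receptor Pear1 (5.79 to 16.8 CPM) and Trpc6 (0.689 to 8.17 CPM), and none of them was called. P2ry12 overlaps Med12l on the other strand and F2rl2 overlaps Iqgap2 on the other strand, and the labels do not say whether strand was kept, so both are uncertain.

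The cytoskeletal, granule and signalling proteins, 6 members, held 1 gene that rose. Neurogranin, Nrgn (ENSMUSG00000053310, chromosome 9, 37544492 to 37552904), a calmodulin-binding protein known from neurons and present in platelets, was at 27.6 and 13.7 CPM in untreated marrow, 27.7 and 62.6 with ZA, 101, 68.3 and 75.4 with G-CSF, and 114 and 77.6 with both. Its groups did not overlap, its log2 change was 1.54 ± 0.30 (adjusted p = 0.0112), and it alone of the 10 called genes stayed past the threshold whichever 1 of the 9 libraries was left out. Platelet 12-lipoxygenase, Alox12, differed by 1.80 ± 0.53 (adjusted p = 0.0625) on the log2 scale and β1-tubulin, Tubb1, the tubulin of the platelet marginal band, by 1.22 ± 0.47 (adjusted p = 0.129), and neither was called. Plek, the protein kinase C substrate pleckstrin, ran from 130.8 to 286 CPM and was not called. Rgs18, a regulator of G protein signalling, stayed between 41.3 and 74.6 CPM with a log2 change of 0.04 ± 0.16 (adjusted p = 0.909). Nbeal2, which α-granule formation requires, was at 139 and 152 CPM in untreated replicate 2 and ZA replicate 2, its highest libraries, and its log2 change was −0.35 ± 0.18 (adjusted p = 0.226).
The transcription factors were not called. Gfi1b, a repressor shared by the megakaryocyte and erythroid lineages, ran from 50.6 to 105 CPM with a log2 change of −0.27 ± 0.17 (adjusted p = 0.339). Fli1, an ETS factor of the lineage that other blood cells also express, ran from 49.9 to 76.0 CPM with a log2 change of −0.10 ± 0.12 (adjusted p = 0.616). On the TPM scale, where the median of all genes shifted to 0.53, the changes of Gfi1b, Fli1 and Nbeal2 had the opposite sign (0.53, 0.61 and 0.45, by limma on log2(TPM + 1)), close to that shift.

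**Figure D2:**
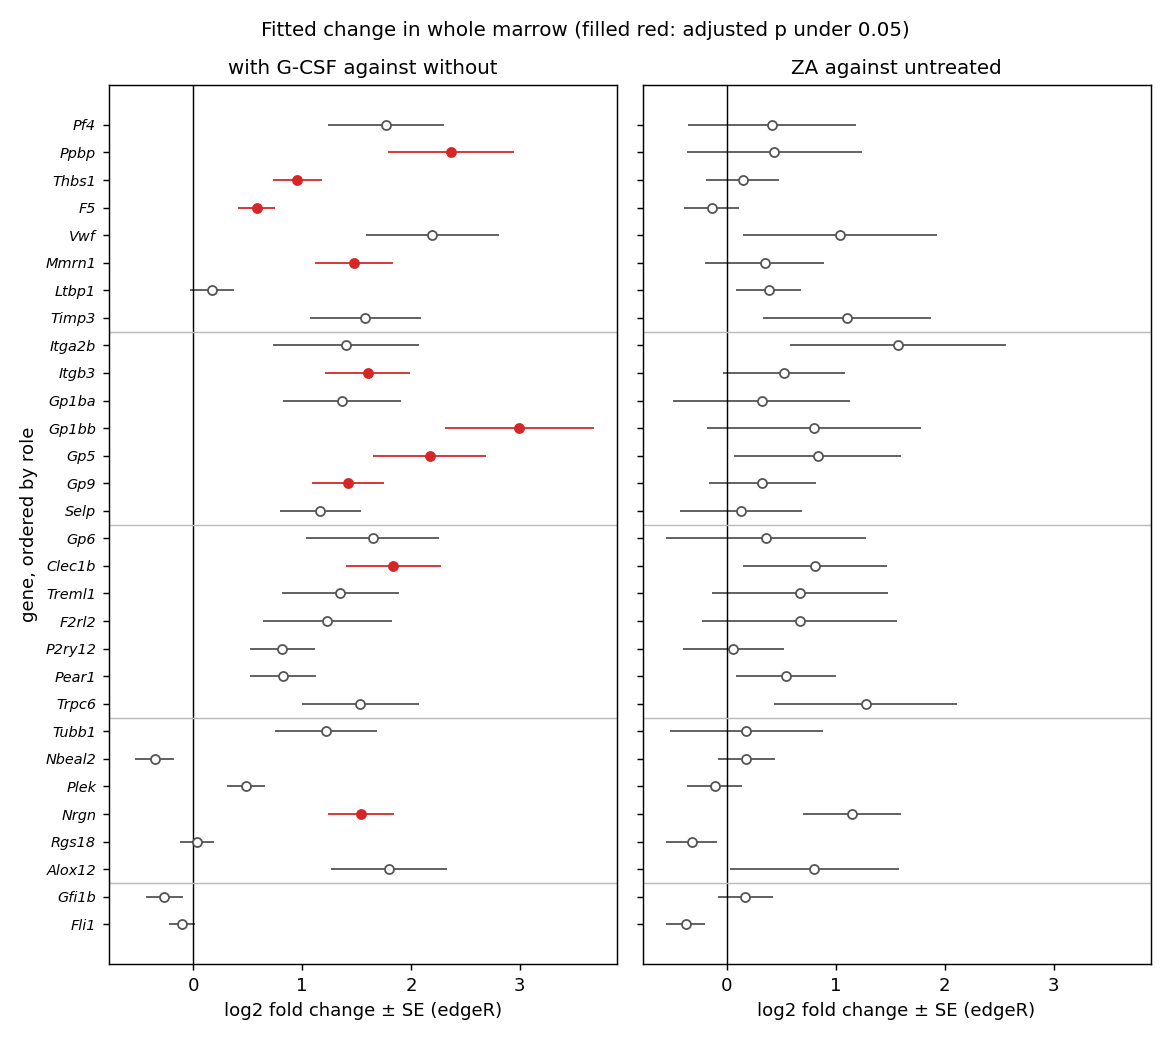
Fitted log2 fold change ± SE of each of the 30 genes in whole marrow, for 5 libraries with G-CSF against 4 without (left) and 2 ZA libraries against 2 untreated (right), with genes grouped by role (grey lines). The 10 filled red points on the left passed the test, 0 points on the right did, and the error bars on the right are wider.

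The count of 10 leaned on single libraries. It was 1 without combined replicate 1, 2 without G-CSF replicate 2, 3 without G-CSF replicate 3, 4 without any 1 of combined replicate 3, untreated replicate 2 or G-CSF replicate 1, and 22 without ZA replicate 3. Leaving out untreated replicate 1 or ZA replicate 2 gave 10 and 13. Over these 9 fits F5 kept its call in 1, Ppbp, Itgb3, Gp5 and Clec1b in 3, Mmrn1 and Gp1bb in 4, Thbs1 in 6, Gp9 in 7 and Nrgn in 9, and the adjusted p of the 47 calls lost ran from 0.0515 to 0.145. The members' median was 2.22 without ZA replicate 3 and 0.97 to 1.72 without any other library. DESeq2 called 19 members (2680 of 14737 genes) and edgeR with no filter on low counts 24 (3362 of 28465 genes). Limma on log2(TPM + 1) called 27 members, where it called 6591 of 14737 genes, 6293 of them higher.

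G-CSF alone was then set against untreated marrow. Gp9 rose by 1.70 ± 0.46 (adjusted p = 0.0481) and Nrgn by 2.00 ± 0.43 (adjusted p = 0.0204) on the log2 scale, so that 2 of 30 members were higher and 0 lower where 11.8% of all genes were called (4.93% higher and 6.91% lower). The number of members called higher was near the share of all genes. The members' median log2 change was 1.63 against 0.01 for all genes. An unadjusted p under 0.05 was found for 15 of 30 members and for 4327 of 14737 genes. All 3 G-CSF libraries lay above both untreated libraries for 24 of 30 members (23.7% of all genes). The estimate for Pf4 was 2.12 ± 0.75 (adjusted p = 0.112), for Ppbp 2.50 ± 0.80 (adjusted p = 0.0881), for Gp1bb 3.51 ± 0.99 (adjusted p = 0.0629), for Gp5 2.58 ± 0.74 (adjusted p = 0.0637) and for Clec1b 2.25 ± 0.63 (adjusted p = 0.054) on that scale. None of these 5 passed the test, with standard errors of 0.63 to 0.99. DESeq2 called 12 members (2452 of 14737 genes) and edgeR with no filter on low counts 22 (3206 of 28465 genes). Limma on log2(TPM + 1) called 21 members, where it called 3106 of 14737 genes, 2938 of them higher. A fit of these 2 groups alone called 16 members, as did fits without ZA replicate 2 or without ZA replicate 3, while 0 were called without G-CSF replicate 1, 1 without G-CSF replicate 2, G-CSF replicate 3 or untreated replicate 2, and 3 without untreated replicate 1 (2 higher and 1 lower). The call of Gp9 was lost without either untreated library or any 1 of the G-CSF libraries (adjusted p 0.0717 to 0.255), and Nrgn lost its call when untreated replicate 2 (adjusted p = 0.130) or G-CSF replicate 1 (adjusted p = 0.0531) was left out.

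A list of 50 other genes of megakaryocytes and platelets, of which 49 could be tested, was described beside the 30. With G-CSF against without, 15 rose and 2 fell, beside 6.39% higher and 8.27% lower of all genes, with a median log2 change of 0.64. The largest of these changes were those of Slc35d3, a gene needed for platelet dense granules, at 2.01 ± 0.46 (adjusted p = 0.0191), and of the serotonin transporter Slc6a4 at 1.92 ± 0.40 (adjusted p = 0.0154). The small GTPase Rab27b, which acts in granule secretion, changed by 1.58 ± 0.37 (adjusted p = 0.0248), the G protein subunit Gng11 by 1.58 ± 0.41 (adjusted p = 0.0347), the granule chaperone clusterin, Clu, by 1.56 ± 0.43 (adjusted p = 0.0482) and the ADP receptor P2ry1 by 1.53 ± 0.23 (adjusted p = 0.00265). The number that fell was not above the share of all genes. The 2 were the transcription factors Runx1, with a log2 change of −0.99 ± 0.23 (adjusted p = 0.0217), and Nfe2, with −0.49 ± 0.12 (adjusted p = 0.024). Gata1, Gata2, Tal1, Zfpm1 and Meis1, other regulators on that list, were not called lower in this comparison. In G-CSF alone against untreated, 6 rose and 3 fell, beside 4.93% higher and 6.91% lower of all genes, so the number that fell was near that share. Slc35d3, Slc6a4, P2ry1, Myl9, P2rx1 and Fermt3 were higher, and the 3 that were lower were Runx1 with a log2 change of −1.55 ± 0.31 (adjusted p = 0.0137), the GATA1 cofactor Zfpm1 with −1.08 ± 0.27 (adjusted p = 0.0326) and Nfe2 with −0.61 ± 0.16 (adjusted p = 0.0383). These regulators are also expressed in stem cells and other blood lineages.

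Markers of other cell types were followed in the same 9 libraries. Skeletal muscle genes summed to 7.91 and 9.30 CPM in untreated marrow, 18.9 and 11.5 CPM with ZA, 28.5 to 50.3 CPM with G-CSF, and 306 and 148 CPM in combined marrow. Of 8 listed muscle genes 7 were tested and 6 rose with G-CSF against without, and Myh1, Myh4 and Tnnc2 were at 0 in both untreated libraries. The 10 stromal and bone markers summed to 225 and 282 CPM in untreated marrow, 228 and 819.8 CPM with ZA, 545 to 691 CPM with G-CSF and 485 and 605 CPM in combined marrow, and 1 of 10 fell and 0 rose. The 10 endothelial markers, at 137 to 141 CPM in both untreated libraries and ZA replicate 2, were at 166 to 322 CPM in the other 6 libraries, and 0 of 10 were called. The 9 erythroid markers found ran from 74120 CPM in untreated replicate 1 down to 22670 CPM in combined replicate 3, and 5 of 9 fell. In TPM the erythroid sums were 33650 and 53600 in untreated marrow, 45390 and 55000 with ZA, 49680 to 51310 with G-CSF, and 36230 and 39040 in combined marrow, so that order depended on the scale. Of 10 monocyte markers 6 fell and 1 rose, with sums of 5489 to 7804 CPM in the 4 libraries without G-CSF, 4009 to 5622 CPM with G-CSF alone and 3490 and 3832 CPM in combined marrow. Of 10 neutrophil markers 3 fell and 1 rose, of 6 T cell markers 3 fell and 1 rose, of 8 B cell markers 1 fell and 0 rose, and of 10 stem and progenitor markers 0 were called. All these counts are with G-CSF against without, where 6.39% of all genes were higher and 8.27% lower. A count of 1 in lists this short was near those shares. Untreated replicate 1 also had 39.95% of its TPM in genes of small RNAs, against 7.96% to 15.2% in the other 8 libraries. For comparison the 10 defining megakaryocyte and platelet markers summed to 421 and 164 CPM in untreated marrow, 129.7 and 880.2 CPM with ZA, 1265 to 1733 CPM with G-CSF and 1151 and 1774 CPM in combined marrow. The part of these other cell types in the results was not tested.

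**Figure D3:**
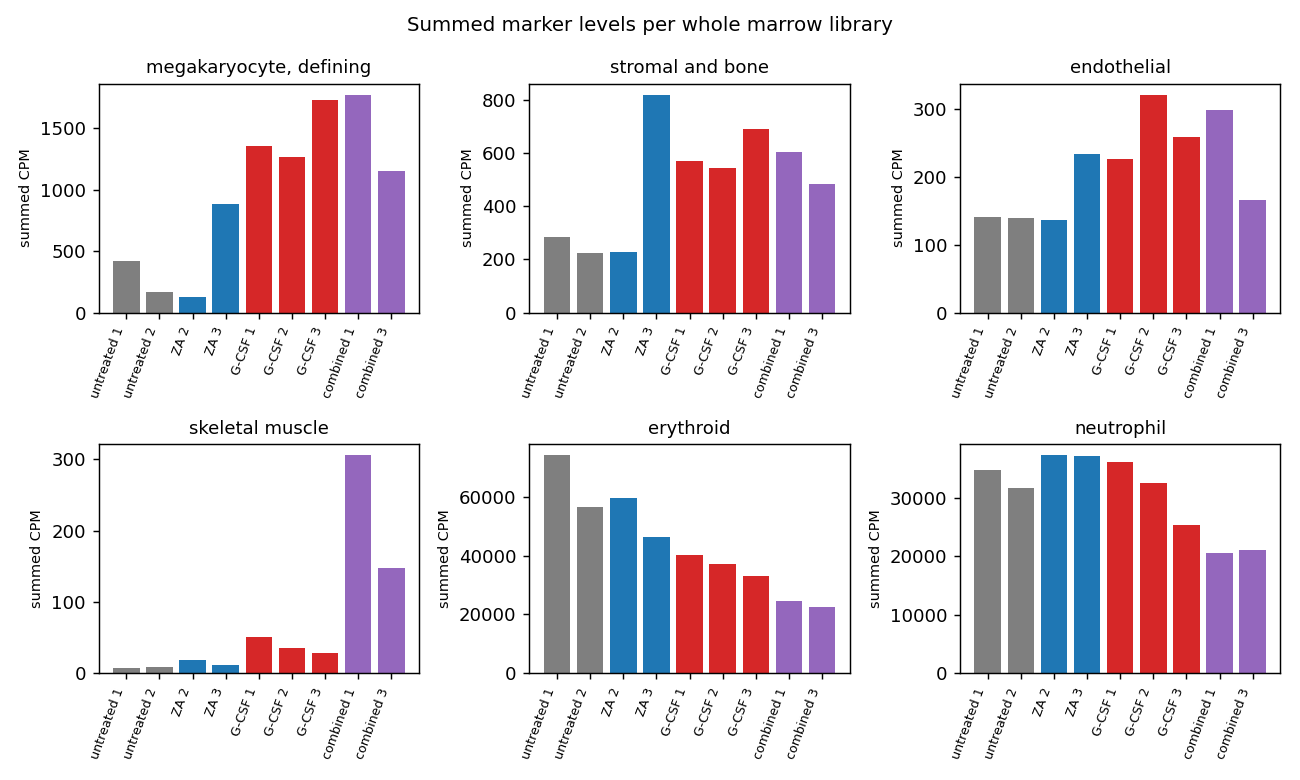
Summed CPM of 6 marker lists in each of the 9 whole marrow libraries, with each panel on its own linear axis from 0 and bars coloured by group. The megakaryocyte, stromal and endothelial sums are low in both untreated libraries and ZA replicate 2 and higher in ZA replicate 3 and the libraries given G-CSF, muscle sums are highest in the combined libraries, and erythroid sums are lowest there.

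ZA alone was compared with untreated marrow to ask about the bisphosphonate by itself. By edgeR's test 0 of 30 members were called, against 5 of 14737 genes (0.0339%), and 1 member and 1395 genes had an unadjusted p under 0.05. DESeq2 and limma on log2(TPM + 1) also called 0 members. With no filter on low counts edgeR called 6, all higher, where it called 634 of 28465 genes. The 2 ZA libraries stood apart from each other: ZA replicate 3 was at least 2-fold above ZA replicate 2 in 22 members (10.3% of all genes) and at least 4-fold above it in 17 (3.94% of all genes). Itga2b was at 37.8 and 324 CPM in them, Pf4 at 16.0 and 114 CPM, and Gp6 at 1.10 and 20.6 CPM. The fitted log2 changes were 1.57 ± 0.99 (adjusted p = 0.638) for Itga2b, 0.41 ± 0.77 (adjusted p = 0.897) for Pf4 and 1.15 ± 0.45 (adjusted p = 0.497) for Nrgn. The median log2 change of the members was 0.40. Without ZA replicate 3 it was −0.77, with Pf4 at −1.62 and Itga2b at −0.69, and without ZA replicate 2 it was 1.163, so the sign turned on 1 library. It was 0.94 without untreated replicate 1 and 0.20 without untreated replicate 2.

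Combined treatment was compared with untreated marrow, and 1 of 30 members, Nrgn, rose, with a log2 change of 2.23 ± 0.46 (adjusted p = 0.0241), where 7.72% of all genes were called (3.17% higher and 4.55% lower). The number of members called higher was near the share of all genes. Over the members the median was 1.72 on the log2 scale. The estimate for Gp1bb was 3.28 ± 1.01 (adjusted p = 0.104), for Clec1b 2.24 ± 0.66 (adjusted p = 0.0814), for Pf4 1.83 ± 0.78 (adjusted p = 0.204) and for Gp9 1.47 ± 0.49 (adjusted p = 0.108), and none of these passed. DESeq2 called 10 members (1758 of 14737 genes) and edgeR with no filter on low counts 22 (2540 of 28465 genes). Limma on log2(TPM + 1) called 28 members, where it called 6110 of 14737 genes, 5948 of them higher. A fit of the 2 groups alone called 10, and fits without ZA replicate 2 or without ZA replicate 3 called 13 each, and 0 were called without combined replicate 1 or combined replicate 3. The call of Nrgn was lost without combined replicate 1 (adjusted p = 0.135), combined replicate 3 (adjusted p = 0.0536) or untreated replicate 2 (adjusted p = 0.104). Both treatments against untreated share the same 2 untreated libraries, so their values are set side by side and not combined. Of the 49 other genes 2 rose, P2ry1 with a log2 change of 1.73 ± 0.34 (adjusted p = 0.0195) and the cytokine Tgfb1 with 1.07 ± 0.23 (adjusted p = 0.025), and Nfe2 fell with −0.74 ± 0.18 (adjusted p = 0.0368). These counts were near or below the shares of all genes.

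Adding ZA to G-CSF was tested by setting combined against G-CSF marrow. By edgeR's test 0 of 30 members and 1 of 14737 genes (0.00679%) were called, and 1 member and 1530 genes had an unadjusted p under 0.05. DESeq2 called 0 members, and edgeR with no filter called 1 (557 of 28465 genes). On the log2 scale Pf4 differed by −0.29 ± 0.69 (adjusted p = 0.917) and Ppbp by 0.16 ± 0.72 (adjusted p = 0.962), and the members' median was 0.16. Pf4 lay at 197 to 234 CPM with G-CSF and at 132 and 216.5 CPM with both, so the groups overlapped. Against ZA alone, 0 of 30 members were called (4.33% of all genes, 1.87% higher and 2.46% lower), and the median log2 change was 1.09. An unadjusted p under 0.05 was found for 13 members and for 2546 of 14737 genes. There Ppbp differed by 2.23 ± 0.83 (adjusted p = 0.224), Gp1bb by 2.48 ± 0.95 (adjusted p = 0.24) and Itga2b by 0.67 ± 0.96 (adjusted p = 0.799) on the log2 scale. With no filter that comparison called 21 members (1587 of 28465 genes). By limma on log2(TPM + 1) it called 13 (747 of 14737 genes, 637 of them higher). Without ZA replicate 3 it called 13 members with a median of 2.83, and without either untreated library it called 1. Of the 49 other genes P2ry1 rose with a log2 change of 1.40 ± 0.33 (adjusted p = 0.0485), and the Fc receptor γ chain Fcer1g, shared with myeloid cells, fell with −0.69 ± 0.15 (adjusted p = 0.0311). Such counts in that list were near the shares of all genes. The interaction term, which asks whether the combined log2 change departs from the sum of the separate ones, called 0 of 30 members and 1 of 14737 genes (0.00679%). DESeq2 called 0 members for it, and edgeR with no filter called 2 (746 of 28465 genes). In the filtered fit 0 members and 1738 of 14737 genes had an unadjusted p under 0.05. Its estimates were wide, −0.71 ± 1.03 (adjusted p = 0.807) for Pf4 and −1.04 ± 1.28 (adjusted p = 0.769) for Gp1bb, and the members' median of −0.33 was 0.87 without ZA replicate 3.

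In sorted osteoclast precursors 13 of the 30 members were at 1 TPM or less in all 8 run 1 libraries, and 5 members (Ltbp1, Nbeal2, Plek, Rgs18 and Fli1) exceeded 5 TPM in all 8. The shares of all genes at these levels were not computed, so these counts describe the members only. Pf4 ran from 0 to 6.67 TPM in the 8 precursor libraries, listed at 0 in combined replicate 2, Ppbp from 0.414 to 4.82 TPM, Gp9 from 0.0165 to 0.37 TPM and Gp1bb from 0.00604 to 0.419 TPM. The 10 defining markers summed to 2.60 to 16.2 TPM per library, against 82.6, 146 and 1246 TPM in the ZA, untreated and G-CSF marrow libraries of the same run. For combined against G-CSF precursors, 0 of 30 members and 0 of 18779 genes (0%) were called by edgeR, 1306 genes and 0 members had an unadjusted p under 0.05, and DESeq2 called 91 genes and 0 members. On the log2 scale Pf4 differed by −0.40 ± 1.32 (adjusted p = 0.969), and the members' median was −0.18. For the 6 libraries with G-CSF against the 2 without, 0 members and 0 genes (0%) were called by edgeR, 682 genes and 0 members had an unadjusted p under 0.05, and DESeq2 called 30 genes and 0 members. On that scale Gp1bb differed by −1.30 ± 0.96 (adjusted p = 1), Tubb1 by −1.33 ± 0.65 (adjusted p = 1) and Pf4 by −0.52 ± 1.28 (adjusted p = 1), and the median was −0.22. In the 17 precursor libraries of both runs that the labels name for the final comparison, with run as a term, 0 members were called in either comparison. The median with G-CSF against without was −3.85, however, and 25 members and 4497 of 18954 genes had an unadjusted p under 0.05. Those 17 include 3 of the run 2 libraries that correlated best with marrow (untreated replicate 7, ZA replicate 5 and ZA replicate 7), all of them in the groups without G-CSF. In a fit without these 3, chosen after the data were seen, 0 members were called and the median was −0.34. An unadjusted p under 0.05 was found for 4 members and for 1988 of 19462 genes.

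The sort was checked against whole marrow by setting 5 run 1 precursor libraries (untreated 1, G-CSF 3, ZA 1) against the 3 marrow libraries of the same run, with treatment as a term. The 3 combined precursor libraries were left out of this fit, since run 1 holds no combined marrow library. Of 30 members 27 were lower in precursors and 0 higher, where 43.8% of all genes were called (23.3% lower and 20.4% higher). Their median on the log2 scale was −4.85 against 0.06 for all genes. Gp9 differed by −7.17 ± 0.49 (adjusted p = 4.2e-05), Pf4 by −6.63 ± 0.91 (adjusted p = 0.00181), Gp1bb by −6.55 ± 1.14 (adjusted p = 0.00455) and Itga2b by −5.23 ± 0.75 (adjusted p = 0.002) on the log2 scale. For each of these 4 genes all 8 precursor libraries, combined ones included, lay below all 3 marrow libraries. In TPM the same held for the other defining markers except Gp1ba. Its highest precursor library was at 0.539 TPM and its lowest marrow library of run 1 at 0.364 TPM. The share of all genes without such overlap was not computed. Gfi1b, which was among the members that varied least in marrow, differed by −6.43 ± 0.93 (adjusted p = 0.00235), with 118, 101 and 87.1 TPM in the marrow libraries and 0.167 to 4.64 TPM in precursors. Smaller differences were measured for 3 other members. The ADP receptor P2ry12 differed by −1.55 ± 0.45 (adjusted p = 0.0271), Plek by −1.51 ± 0.21 (adjusted p = 0.00104) and Rgs18 by −0.60 ± 0.15 (adjusted p = 0.0149). Ltbp1 differed by 0.11 ± 0.15 (adjusted p = 0.608), Nbeal2 by −0.02 ± 0.24 (adjusted p = 0.957) and Fli1 by 0.25 ± 0.12 (adjusted p = 0.125), and these 3 were not called. Nbeal2 lay at 24.3 to 39 TPM in precursors, and Fli1 at 12.2 to 21.5 TPM, so both were plainly expressed there. Among the 49 other genes tested 33 were lower and 8 higher, and the number higher was not above the share of all genes. Gata1, the master regulator of the erythroid and megakaryocyte lineages, was at −7.29 ± 0.44 (adjusted p = 2.7e-05) and Runx1 at 1.19 ± 0.39 (adjusted p = 0.042). Lineage antibodies used for the sort included TER119, and the 9 erythroid markers summed to 78.0 to 1857 TPM in precursors against 51060 to 54980 TPM in marrow. Monocyte markers were higher in precursors for 8 of 10. Without marrow G-CSF replicate 2, the library with the most megakaryocyte RNA of the 3, the count was 23 and the median −3.31, and the calls of Rgs18 and P2ry12 were lost. P2ry12 was also not called without marrow ZA replicate 2, precursor G-CSF replicate 2 or precursor ZA replicate 3 (adjusted p of these 5 lost calls 0.0573 to 0.154). With the replicate number as a block 8 members were called lower (1960 of 18705 genes), with a median of −4.36. Whether equal numbers pair marrow with precursors could not be checked, since run 1 holds 1 marrow library per treatment. On the log2(TPM + 1) scale limma called 21 members lower and 3 higher (Ltbp1, Nbeal2 and Fli1). Of all 17208 genes it called 2081 lower and 9272 higher. The members' median was −1.29 where all genes had 0.52, and Rgs18 changed sign to 0.26.

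**Figure D4:**
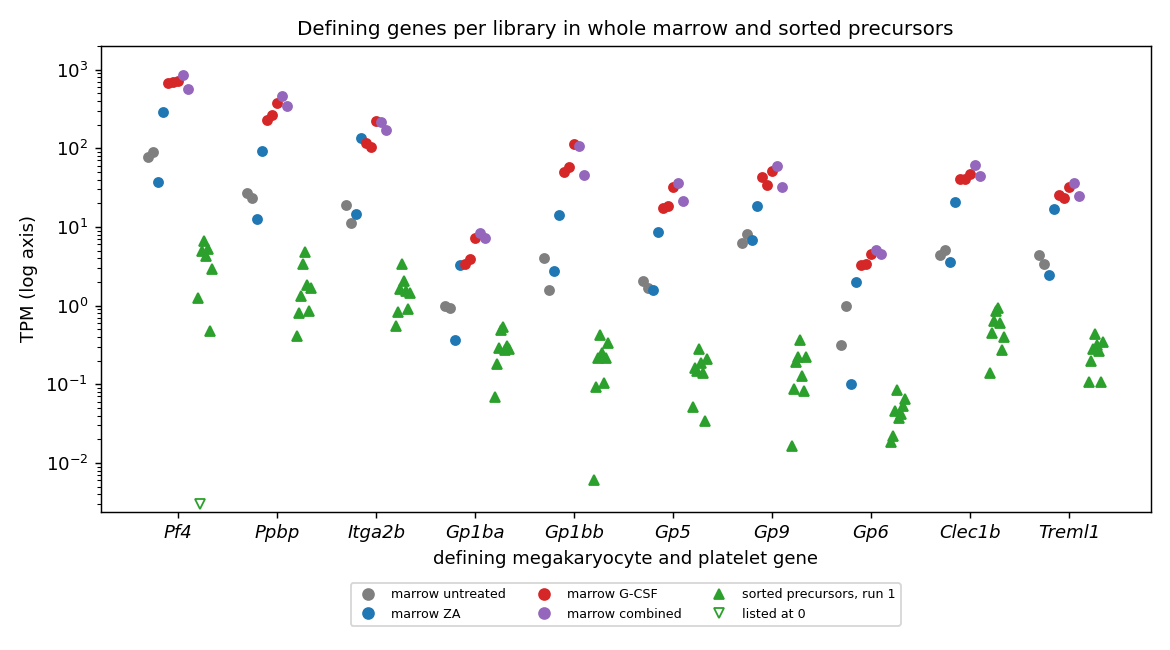
TPM on a log axis of the 10 defining genes in each whole marrow library (circles, coloured by group, 9 libraries) and each run 1 precursor library (green triangles, 8 libraries), with a listed 0 drawn as an open triangle at the bottom. For Pf4, Gp9, Gp1bb and Itga2b every precursor library lies below every marrow library, while for Gp1ba the precursor and marrow ranges overlap. In marrow the G-CSF and combined points sit above both untreated points.

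With run 2 libraries in place of run 1, the same comparison of tissues called 0 of 30 members and 0 of 16960 genes by edgeR (189 genes and 0 members at an unadjusted p under 0.05), and the median log2 change was 0.62 in place of −4.85. The marrow library labelled G-CSF replicate 2 of run 2 had 9.90 TPM of the defining markers, against 1246 TPM in its run 1 library, and correlated at 0.753 with that library and at 0.977 with precursor G-CSF replicate 2 of run 1. The precursor library labelled G-CSF replicate 2 of run 2 had 1161 TPM against 10.1 TPM in run 1, and correlated at 0.741 with its own run 1 library and at 0.951 with marrow G-CSF replicate 2. The marrow library labelled untreated replicate 2 of run 2 had 16.0 TPM against 146 TPM, and the precursor library with that label 128 TPM against 16.2 TPM. The level of these genes thus followed the correlation across all genes and not the tissue label in these 4 libraries.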

How the data were processed

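RNA-seq was analysed from whole marrow (9 libraries) and sorted precursors (8 run 1 libraries). The 18 libraries of run 2, 15 labelled precursor and 3 labelled marrow, were used only where named. The deposited tables hold estimated counts and TPM per Ensembl gene. The submitters' processing notes name Salmon, DESeq2 1.16.1 and mm10 without their roles, and the annotation release and strand setting are not given in the sources used here. Identifiers were named through GENCODE mouse release 21 on GRCm38 (98.942% and 98.976% matched). The 30 members, the other lists and the tests were chosen with earlier results of these data known.

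Estimated counts were rounded, genes were kept with filterByExpr (minimum count 10, total 15), and edgeR 4.0.16 (R 4.3.3) fitted all groups of a set by quasi-likelihood with TMM scaling, with Benjamini-Hochberg adjustment over all genes tested and a threshold of 0.05. Every adjusted p is from edgeR unless another tool is named, and errors are standard errors. Named genes were members, by role, and from the list of other genes those called (the 6 largest where more were). DESeq2 1.42.0, limma 3.58.1 on log2(TPM + 1), no filter, protein-coding genes only, the replicate block, fits of 2 groups and leaving out each library were the alternatives. The fits were tested on simulated counts with the same spread for all genes and no outlying library. The outcome is not given here, and it does not cover a spread such as that between the ZA libraries. Floors cover counting error only. The result of 1 other gene of the lineage is not reported here.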

Additional observations from a re-analysis of the deposited data

Results flagged for a closer look

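The summed TPM of the 10 defining markers was far from the rest of its group in 1 library of each of the 3 groups large enough to test, all of them precursor groups of run 2. By Dixon's criterion for 1 outlying value, chance calls about 1 in 20 groups of normally distributed values. The sums were used in TPM without logs and were widely spread, so that rate may not hold here. The criterion was not applied on a log scale, where the gaps weigh less. Precursor combined replicate 3 of run 2 had 693.9 TPM, where the other 3 libraries had 1.948, 9.847 and 46.92 TPM, and the gap was 0.935 of the range against a critical value of 0.829. Precursor G-CSF replicate 2 of run 2 had 1161 TPM, where the other 4 had 5.063, 13.59, 17.52 and 332.6 TPM (0.717 against 0.71). Precursor ZA replicate 7 of run 2 had 968 TPM, where the other 3 had 8.78, 27.59 and 72.76 TPM (0.933 against 0.829). All 3 of these libraries correlated best with a run 1 library of whole marrow.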

How the results depend on the processing

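Depth of 6.24 to 16.15 M counts, 2 or 3 libraries a group and the spread between both ZA libraries limit the marrow results. Deviations of same-numbered libraries from their group means correlated at −0.05 to 0.13 over 9 marrow pairs (1 above 0.1) and −0.04 to −0.03 over 3 precursor pairs. With 2 or 3 libraries a group, this check cannot settle whether equal numbers pair the samples. With the replicate block, members called went from 10 to 7 with against without G-CSF, from 2 to 3 for G-CSF against untreated, from 27 to 8 between tissues, and the combined against G-CSF median was −0.16 and Ppbp −0.30. The cause was not tested for any of these changes. DESeq2 called 12 members for G-CSF, 10 for combined treatment (both against untreated) and 19 with against without G-CSF. Of 14737 genes it called 2452, 1758 and 2680 in these comparisons. Without a filter, more genes were tested, and 22, 22 and 24 members were called. There were 6 for ZA against untreated, 1 for combined against G-CSF, 21 for combined against ZA and 2 for the interaction. Of 28465 genes, 3206, 2540, 3362, 634, 557, 1587 and 746 were called in that order. Limma on log2(TPM + 1) called 21, 28 and 27 members, and 13 for combined against ZA. Of 14737 genes it called 3106, 6110, 6591 and 747, most of them higher. Coding genes alone gave 7 members (1442 of 12712 genes) and fits of 2 groups 16 (1426 of 14043 genes) for G-CSF against untreated. For combined against untreated, fits of 2 groups gave 10 (748 of 13314 genes).

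Leaving out 1 library gave 0 to 16 members for G-CSF against untreated, 0 to 13 for combined against untreated and for combined against ZA, and 1 to 22 with against without G-CSF, with 0 for ZA against untreated, combined against G-CSF, the interaction and both precursor comparisons, and 23 to 27 between tissues. Signs turned in these ranges: ZA against untreated, median −0.77 to 1.163, Pf4 −1.62 to 1.21 and Itga2b −0.69 to 2.82. For combined against G-CSF, the median ran from −0.11 to 0.29, Pf4 from −0.69 to 0.018 and Ppbp from −0.12 to 0.40. Itga2b in combined against ZA ran from −0.17 to 2.93. For the interaction, the median ran from −1.05 to 0.87, Pf4 from −1.51 to 1.32 and Gp1bb from −2.76 to 0.50. Rgs18 with against without G-CSF ran from −0.078 to 0.18. In precursors Pf4 ran from −1.86 to 0.28 (combined against G-CSF) and from −1.25 to 0.056 (with against without G-CSF). Nbeal2 between tissues ran from −0.40 to 0.20, with 0.024, 0.14, 0.15, 0.19 and 0.20 in the 5 fits where its sign turned.

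Other signs that turned were, with limma, Pf4 in combined against G-CSF (0.012), Gfi1b (0.53), Fli1 (0.61) and Nbeal2 (0.45) with against without G-CSF, and Nbeal2 (0.83) and Rgs18 (0.26) between tissues. Nbeal2 was 0.067 without a filter and 0.18 with the block there. With run 2 libraries, 0 members were called between tissues and the median was 0.62, Pf4 0.89, Gp9 0.96, Gp1bb 1.25, Itga2b 0.61, Gfi1b 1.27, Fli1 −0.16, Nbeal2 0.18, Ltbp1 −0.056, Rgs18 0.025, Plek 0.18 and P2ry12 0.42. For single genes, 417 results with 1 library left out kept direction and side of the threshold, 62 lost a call, 28 gained one and 18 turned sign. Under the other alternatives these were 239, 10, 70 and 20.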
